A study of Neurospora crassa with 8 samples.

Results

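The genes described here include genes for the branches of the Neurospora crassa respiratory chain that do not pump protons. These are the external NADH dehydrogenase genes nde-1 (NCU05225) and nde-2 (NCU08980), the internal NADH dehydrogenase gene ndi-1 (NCU00153) and the alternative oxidase gene aod-1 (NCU07953). NCU03984, whose product was not established here, is described with them. All were chosen by locus identifier and make up 5 of the 9730 genes in each count file. NCU03984 was put forward under the name aod-2, but the RefSeq table of assembly NC12 gives that symbol to NCU03352 and none to NCU03984. It is therefore called by its locus, and NCU03352 is described as aod-2 among the related genes. The external enzyme gene nde-2 is also listed there under the older locus tag NCU11397.

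Neurospora crassa is a filamentous ascomycete whose mitochondria hold branched electron transport. Complex I, a large enzyme with iron-sulfur clusters, oxidises matrix NADH and pumps protons, whereas alternative NADH dehydrogenases are single-polypeptide flavoenzymes that feed electrons to ubiquinone without pumping and are insensitive to rotenone. The NDE enzymes face the intermembrane space and oxidise cytosolic NAD(P)H, and NDI faces the matrix. Alternative oxidase takes electrons from ubiquinol straight to oxygen, past the heme-containing complexes of the cytochrome pathway, and is known in this fungus for its induction when that pathway is impaired.

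Poly(A) RNA was sequenced from mycelia of 4 groups with 2 cultures each (replicates 1 and 2): the ve-1 mutant in iron-free medium, wild type in iron-free medium, the ve-1 mutant in standard medium, and wild type in standard medium. All were grown in shaken liquid Vogel's medium with 1.5% sucrose for 48 h at 32 °C, and glassware for the iron-free medium was stripped of metal with EDTA and acid. The ve-1 gene encodes a velvet-family regulator of fungal development and secondary metabolism; the labels do not describe the mutant allele. The labels name duplicate cultures, and the p-values set each difference against the spread between cultures of the same group. Whether the 2 cultures of a group are of the same strain is not given, and their matA-1 counts differed. The spread may therefore hold strain differences too.

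Library totals ran from 6654585 to 10192729 counts. The mutated gene itself had 15 and 80 counts in ve-1 iron-free libraries and 2977 and 1931 in wild type iron-free libraries, with 20 and 28 in ve-1 standard libraries and 1077 and 1533 in wild type standard libraries. The iron-responsive gene sre, which encodes a GATA-type repressor of siderophore synthesis, had 7.28 to 13.1 CPM (counts scaled to library size with TMM factors) over the 4 iron-free libraries and 117 to 191 CPM over the 4 standard libraries. The mating-type transcript matA-1 differed inside groups, with 1 and 5 counts in ve-1 iron-free, 74 and 0 in wild type iron-free, 0 and 403 in ve-1 standard and 118 and 0 in wild type standard libraries. Markers of conidia, the asexual spores, differed too: the summed level of 8 marker genes was 58590 and 9075 CPM in ve-1 iron-free, 8905 and 12247 CPM in wild type iron-free, 110447 and 123994 CPM in ve-1 standard and 78766 and 37828 CPM in wild type standard libraries. The hydrophobin gene eas alone made up 51526 and 2485 CPM of those sums in ve-1 iron-free, 1253 and 1073 CPM in wild type iron-free, 91783 and 101246 CPM in ve-1 standard and 53743 and 9323 CPM in wild type standard libraries. Not all markers followed the sum. With iron, where the sum was higher in ve-1, 1 of the 8 was called higher (con-6, log2 fold change 4.50) and 2 lower (ccg-13, -3.27, and ccg-9, -1.92). The median log2 fold change of the 8 was 1.12 there, against -0.03 over all tested genes. Over all tested genes 12.5% were called higher and 15.3% lower there. Without iron ccg-9 was called lower (-1.52), against 10.1% of tested genes, and none higher. Iron absence went with 4 of the 8 called lower in ve-1, among them con-6 (-6.19) and con-10 (-5.61), against 11.6% of tested genes. In wild type it went with 2 called lower, ccg-13 (-3.15) and ccg-9 (-2.92), against 5.10%. The marker con-13 was at 0 in replicate 2 of both iron-free groups. In wild type matA-1 was found in replicate 1 of both media and not in replicate 2, and the deposited file names carry a code shared by the same-numbered cultures of a genotype, which the labels do not explain. The part of the mating-type and spore differences in the results below was not tested.

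**Figure D1:**
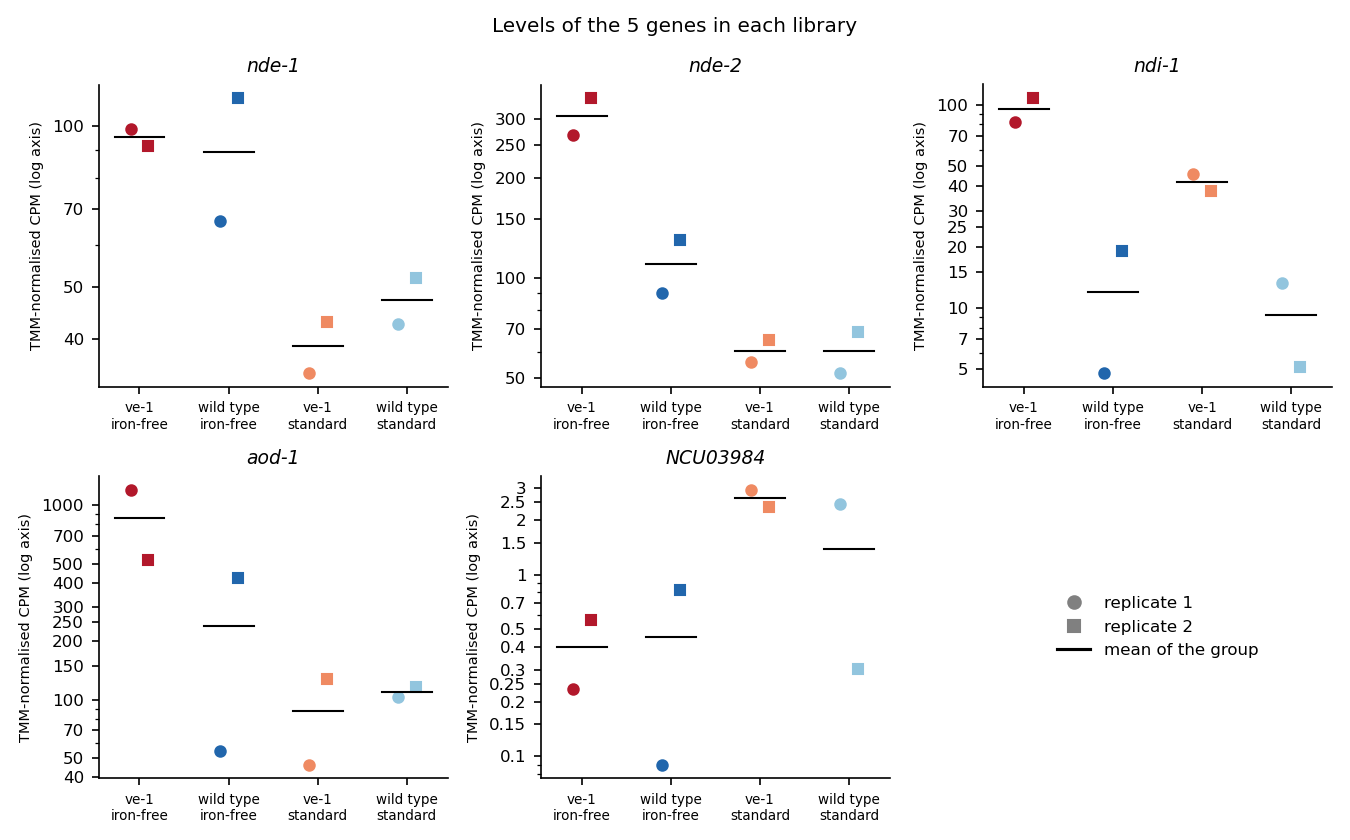
TMM-normalised CPM (log axis) of the 5 genes in each of the 8 libraries, by group, with circles for replicate 1, squares for replicate 2 and a line at the mean of each group. ndi-1 is higher in all 4 ve-1 libraries (37.4 to 108 CPM) than in all 4 wild type libraries (4.78 to 19.2 CPM), and the aod-1 replicates of wild type in iron-free medium lie 7.80-fold apart.

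The alternative respiration genes were not all called in the same comparisons, and differences between the genes were not tested. The matrix-facing ndi-1 was called higher in ve-1 in both media, the cytosol-facing nde-2 in ve-1 without iron, and nde-1 and nde-2 for iron absence in ve-1. For iron absence in ve-1 nde-1, nde-2, ndi-1 and aod-1 all rose (log2 fold changes 1.29, 2.35, 1.19 and 3.30) with no overlap of libraries, as for 68.7% of tested genes in either direction. In wild type nde-1 and nde-2 rose without overlap too (0.92 and 0.87, not called), where 57.5% of tested genes did not overlap. The alternative oxidase gene aod-1 had its highest levels in ve-1 without iron, but its replicates were far apart and no comparison of it passed the test. In bulk RNA, fewer cells of a type and less RNA per cell cannot be told apart.

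The internal dehydrogenase gene ndi-1 had 82.6 and 108 CPM in ve-1 iron-free libraries, against 4.78 and 19.2 CPM in wild type iron-free libraries. In standard medium it had 45.9 and 37.4 CPM in ve-1 libraries and 13.3 and 5.13 CPM in wild type libraries. The ve-1 and wild type libraries did not overlap in either medium. ndi-1 was 8.0-fold higher in ve-1 without iron (95% interval 2.67 to 24.0, log2 fold change 3.0, SE 0.67, adjusted p = 0.0251, edgeR quasi-likelihood test with Benjamini-Hochberg adjustment over 8118 tested genes). With iron it was 4.51-fold higher in ve-1 (1.52 to 13.4, log2 fold change 2.17, SE 0.67, adjusted p = 0.0488). Both calls were close to the threshold. The call in standard medium was not made with no filter on low counts (adjusted p = 0.0529) or with the replicate number as a block (0.0637). It was also lost without any of 6 libraries, each of the 4 standard ones and both ve-1 iron-free ones, with adjusted p up to 0.215 without standard wild type culture 2. In iron-free medium it was lost without standard ve-1 culture 1 or 2, iron-free wild type culture 1, or iron-free ve-1 culture 1 or 2, with adjusted p up to 0.0828. The log2 fold change stayed at or above 1.64 in standard medium and 2.31 in iron-free medium in all these fits. Iron did not give a called change of ndi-1: the log2 fold change of iron-free over standard medium was 1.19 in ve-1 (95% interval -0.28 to 2.67, adjusted p = 0.203) and 0.36 in wild type (-1.19 to 1.91, adjusted p = 0.765). The authors' deposited table for iron absence in ve-1 lists ndi-1 with a log2 fold change of 1.14 and an adjusted p of 0.00387.

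The external dehydrogenase gene nde-2 had 268 and 346 CPM in ve-1 iron-free libraries, 90.2 and 130 CPM in wild type iron-free libraries, 55.8 and 65.1 CPM in ve-1 standard libraries and 51.7 and 68.7 CPM in wild type standard libraries. The order fell from ve-1 iron-free through wild type iron-free to the standard groups with no overlap, and the standard groups overlapped each other. In ve-1, nde-2 was 5.08-fold higher without iron than with it (95% interval 3.17 to 8.15, log2 fold change 2.35, SE 0.29, adjusted p = 0.00663). Without iron it was 2.8-fold above wild type in ve-1 (1.77 to 4.42, log2 fold change 1.48, SE 0.28, adjusted p = 0.0153). In standard medium the log2 difference between ve-1 and wild type was 0.01 (-0.65 to 0.66). Leaving out standard ve-1 culture 1 ended the iron call in ve-1 (adjusted p = 0.0630), and leaving out iron-free wild type culture 1 (0.0715) or iron-free ve-1 culture 2 (0.0600) ended the genotype call, while the log2 fold changes stayed at 2.24, 1.25 and 1.29.

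The wild type response of nde-2 to iron absence had the same direction without passing, at a log2 fold change of 0.87 (95% interval 0.21 to 1.52, adjusted p = 0.107). The difference between the ve-1 and wild type responses was 1.48 on the log2 scale (0.55 to 2.40), with an adjusted p of 0.121 by edgeR and 0.0330 by DESeq2.

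The external dehydrogenase gene nde-1 had 98.8 and 91.6 CPM in ve-1 iron-free libraries, 66.4 and 113 CPM in wild type iron-free libraries, 34.6 and 43.1 CPM in ve-1 standard libraries and 42.8 and 51.9 CPM in wild type standard libraries. All 4 iron-free libraries lay above all 4 standard ones, and the genotypes overlapped within each medium. In ve-1, nde-1 was 2.45-fold higher without iron (95% interval 1.53 to 3.92, log2 fold change 1.29, SE 0.29, adjusted p = 0.0223). The wild type log2 fold change was 0.92 (0.25 to 1.59, adjusted p = 0.0980), and the difference of these responses was 0.38 (-0.57 to 1.32, adjusted p = 0.627). The ve-1 call was lost without any of the 4 ve-1 libraries (adjusted p 0.0572 to 0.154, the highest without standard ve-1 culture 1). Between genotypes the log2 difference was 0.09 without iron (-0.57 to 0.75) and -0.29 with iron (-0.96 to 0.39), and the standard medium value turned to 0.03 with libraries scaled by total counts.

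The gene span of nde-1 overlaps that of NCU05226, and no strand setting for the counting is given in the sources used here, so reads of this pair may be mixed. NCU05226 had 60.4 and 141 CPM in ve-1 iron-free, 37.6 and 54.4 CPM in wild type iron-free, 23.4 and 27.7 CPM in ve-1 standard and 16.9 and 18.3 CPM in wild type standard libraries. It too was higher in all 4 iron-free libraries than in all 4 standard ones, and its part in the nde-1 values was not tested.

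The alternative oxidase gene aod-1 had 1205 and 524 CPM in ve-1 iron-free libraries, 54.4 and 425 CPM in wild type iron-free libraries, 46.4 and 129 CPM in ve-1 standard libraries and 103 and 116 CPM in wild type standard libraries. Both ve-1 iron-free libraries lay above the other 6. Wild type in iron-free medium spanned the range, with replicate 1 below both wild type standard libraries and replicate 2 near the lower ve-1 iron-free library. In ve-1, aod-1 was at 9.88 times the standard medium level without iron (95% interval 2.01 to 48.7, log2 fold change 3.30, SE 0.98), at an adjusted p of 0.0501, just above the threshold of 0.05 and so not called. It was called in 7 of 16 alternative fits, among them those without iron-free wild type culture 1 (adjusted p = 0.0199) or replicate 2 (0.0197), and by DESeq2 (0.000447). The authors' deposited table for this comparison lists aod-1 with a log2 fold change of 3.02 and an adjusted p of 2.43e-07.

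Without iron, the log2 fold change of aod-1 in ve-1 over wild type was 1.85 (95% interval -0.32 to 4.02, adjusted p = 0.199), although the libraries of the groups did not overlap. It became 3.96 and was called (adjusted p = 0.0433) when iron-free wild type culture 2 was left out. In standard medium the difference was -0.33 (-2.44 to 1.79), and in wild type the response to iron absence was 1.13 (-1.01 to 3.26, adjusted p = 0.474). Leaving out iron-free wild type culture 2 turned the wild type response to -0.92, and leaving out replicate 1 moved it to 2.0. The aod-1 response in wild type therefore depended on which replicate was read.

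NCU03984 was barely expressed, with 2 and 7 counts in ve-1 iron-free libraries, 1 and 7 in wild type iron-free libraries, 21 and 15 in ve-1 standard libraries and 17 and 2 in wild type standard libraries. Standard wild type culture 1 (2.46 CPM) lay between the 2 ve-1 standard libraries (2.93 and 2.36 CPM), and standard wild type culture 2 was as low as the iron-free libraries. Its log2 fold change for iron absence in ve-1 was -2.63 (95% interval -5.15 to -0.10, adjusted p = 0.116). The authors' deposited table for that comparison lists it with a log2 fold change of -2.11 and an adjusted p of 0.0279. No comparison of NCU03984 passed the edgeR test over all 8 libraries, and the iron comparison in ve-1 passed in a fit of the 4 ve-1 libraries alone (adjusted p = 0.0361).

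**Figure D2:**
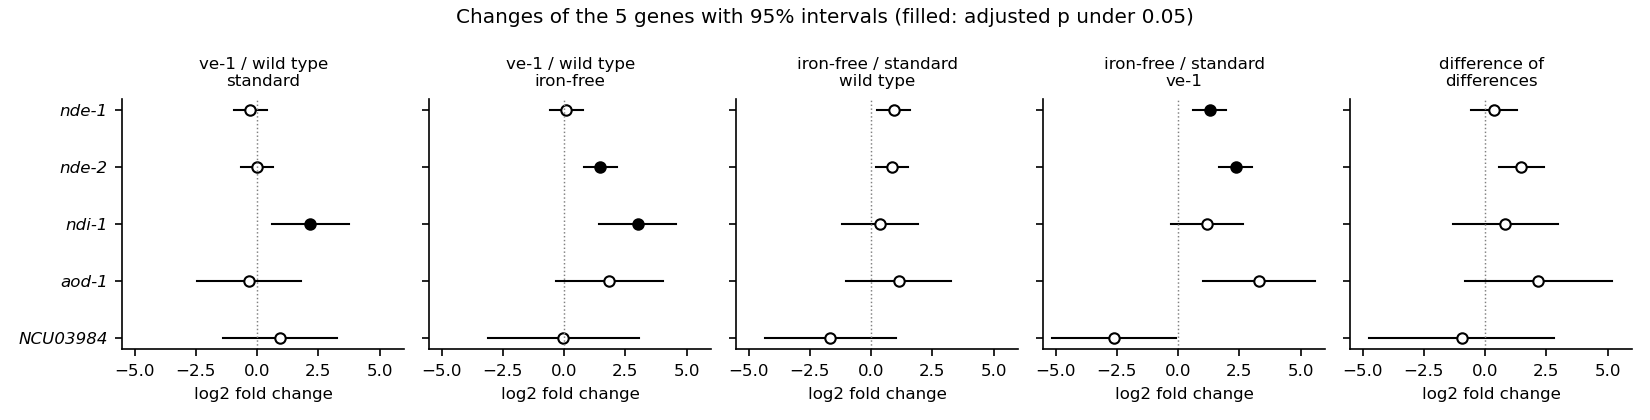
Log2 fold changes of the 5 genes (points) with 95% intervals (bars) in the 4 pairwise comparisons and in the difference of the responses, filled where the adjusted p was under 0.05. The filled points are ndi-1 in both genotype comparisons, nde-2 in ve-1 over wild type without iron, and nde-1 and nde-2 for iron absence in ve-1; the aod-1 bars are wide.

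Counted by comparison, 1 of the 5 genes was higher in ve-1 in standard medium and none was lower, where 12.5% of 8118 tested genes were called higher and 15.3% lower. Without iron, 2 of 5 were higher in ve-1 and none lower, against 8.36% higher and 10.1% lower over all tested genes. For iron absence in ve-1, 2 of 5 were higher and none lower, against 10.9% higher and 11.6% lower. For iron absence in wild type edgeR called 0 of 5, where 1.47% of tested genes were called higher and 5.10% lower; 2 passed an unadjusted p of 0.05 and DESeq2 called 1, nde-2. For the difference between the responses edgeR called 0 of 5, against 0.246% of tested genes; 1 passed an unadjusted p of 0.05 and DESeq2 called 1, again nde-2. With libraries scaled by total counts, 2 of 5, nde-1 and nde-2, were called higher for iron absence in wild type, and the median over all genes shifted by 0.52 (log2).

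The ve-1 and wild type libraries did not overlap for 1 of the 5 genes in standard medium and 3 of 5 without iron, where 74.4% and 61.0% of tested genes did not overlap. The iron-free and standard libraries did not overlap for 2 of 5 genes in wild type and for 5 of 5 in ve-1, of which NCU03984 was lower, where 57.5% and 68.7% of tested genes did not. These comparisons share libraries and are not independent of each other.

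Levels of different genes were set side by side per kilobase of gene span. Span is not transcript length and nde-1 reads may be mixed with those of NCU05226, so such comparisons are rough. Per kilobase of span aod-1 had the highest mean in each group, although in iron-free wild type its SD was larger than its mean. Its level was 424 ± 237 CPM per kb in ve-1 iron-free, 118 ± 128 in wild type iron-free, 42.9 ± 28.5 in ve-1 standard and 53.8 ± 4.54 in wild type standard libraries (mean ± SD, n = 2 each). nde-2 followed at 110 ± 19.8, 39.3 ± 9.94, 21.6 ± 2.37 and 21.5 ± 4.29 CPM per kb in the same order of groups. On that scale nde-1 and ndi-1 had nearly the same level in ve-1, 31.0 ± 1.65 and 28.8 ± 5.36 CPM per kb without iron and 12.6 ± 1.96 and 12.6 ± 1.80 with iron. In wild type nde-1 was far above ndi-1, at 29.1 ± 10.6 against 3.63 ± 3.08 CPM per kb without iron and 15.4 ± 2.11 against 2.79 ± 1.75 with iron. NCU03984 was the lowest of the 5 in each group.

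Of 4 further genes named aod or nde in the RefSeq table, aod-2 and aod-5 encode zinc-cluster transcription factors needed for aod-1 induction, aod-3 encodes another alternative oxidase, and nde-3 another alternative NADH dehydrogenase. The regulator gene aod-2 had 37.4 and 33.3 CPM in ve-1 iron-free libraries, 13.6 and 17.2 CPM in wild type iron-free libraries, 44.7 and 40.3 CPM in ve-1 standard libraries and 18.9 and 13.7 CPM in wild type standard libraries. All 4 ve-1 libraries were above all 4 wild type ones. aod-2 was 2.30-fold higher in ve-1 without iron (log2 fold change 1.20, SE 0.25, adjusted p = 0.0197) and 2.6-fold higher with iron (log2 fold change 1.38, SE 0.25, adjusted p = 0.0112). The call without iron was lost without any of the 4 iron-free libraries (adjusted p 0.0516 to 0.0904, the highest without iron-free wild type culture 1) and in a fit of those 4 libraries alone (0.0528). The call with iron was lost without standard wild type culture 2 (0.0719) or standard ve-1 culture 1 (0.0831).

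The partner regulator aod-5 had 57.7 and 52.1 CPM in ve-1 iron-free libraries, 40.8 and 38.3 CPM in wild type iron-free libraries, 59.4 and 59.9 CPM in ve-1 standard libraries and 44.9 and 40.3 CPM in wild type standard libraries. The ve-1 libraries lay above the wild type ones in both media, by 0.47 (adjusted p = 0.118) and 0.49 (0.0888) on the log2 scale without and with iron, which did not pass. With libraries scaled by total counts the difference with iron was 0.80 and passed the edgeR test (adjusted p = 0.0468). Neither regulator gene had a called response to iron absence.

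**Figure D3:**
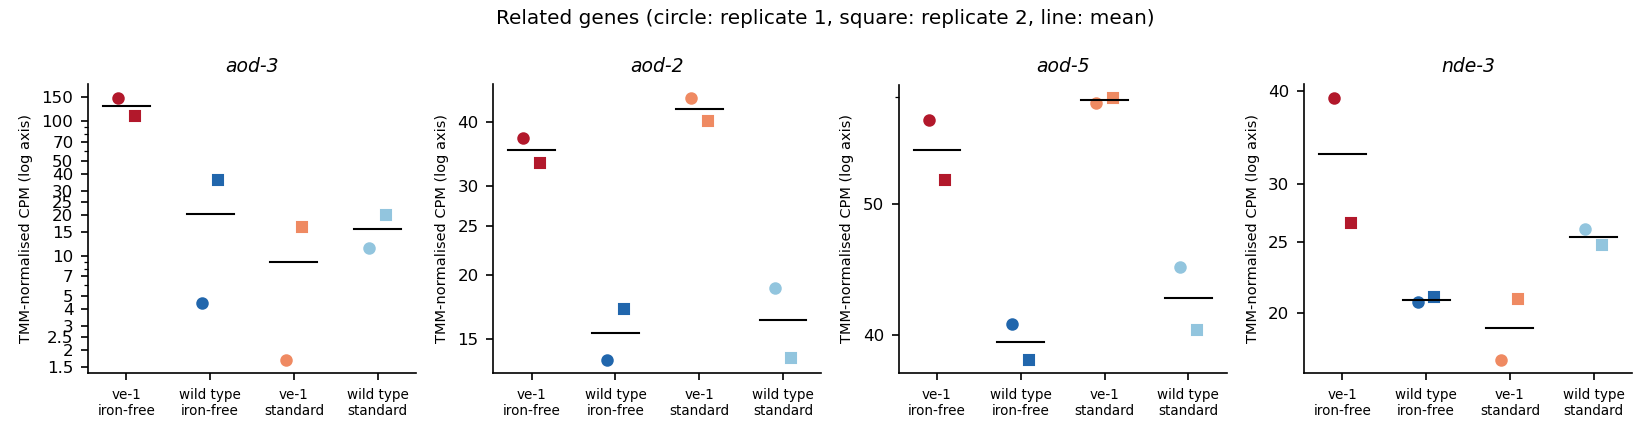
TMM-normalised CPM (log axes) of aod-3, aod-2, aod-5 and nde-3 in each library by group, with circles for replicate 1, squares for replicate 2 and lines at the mean of each group. aod-2 is higher in every ve-1 library than in any wild type library, and aod-3 is highest in the ve-1 iron-free libraries (149 and 109 CPM).

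The second oxidase gene aod-3 had 149 and 109 CPM in ve-1 iron-free libraries, 4.42 and 36.2 CPM in wild type iron-free libraries, 1.67 and 16.4 CPM in ve-1 standard libraries and 11.4 and 19.9 CPM in wild type standard libraries. As for aod-1, both ve-1 iron-free libraries lay above the other 6, and replicate 1 was the lower of the pair in wild type iron-free and ve-1 standard medium. Its log2 fold change for iron absence in ve-1 was 3.85 (95% interval 1.09 to 6.61, adjusted p = 0.0539), and it was called in 8 of 16 alternative fits, with DESeq2 at 0.000651. Leaving out iron-free wild type culture 1 (0.0318) or 2 (0.0317) gave the call. Between genotypes without iron its log2 fold change was 2.68 (0.10 to 5.25, adjusted p = 0.131 by edgeR and 0.0263 by DESeq2). The centred log2 levels of aod-1 and aod-3 differed by a root mean square of 0.677 over the 8 libraries.

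The dehydrogenase gene nde-3 had 39.2 and 26.5 CPM in ve-1 iron-free libraries, 20.7 and 21.0 CPM in wild type iron-free libraries, 17.3 and 20.9 CPM in ve-1 standard libraries and 26.0 and 24.8 CPM in wild type standard libraries. Iron absence went with higher levels in both ve-1 libraries and lower levels in both wild type libraries, and no change of nde-3 passed with TMM scaling. With libraries scaled by total counts its rise in ve-1 passed (adjusted p = 0.0326).

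The other routes of respiration were read from gene lists chosen by symbol. Each left-out library that lowered a list count below also lowered the number of calls over all tested genes in that comparison. Such a drop alone does not set a list apart from other genes. Of 29 complex I subunit genes (nuo), none was called in ve-1 against wild type without iron (median log2 fold change 0.01), where 1 was higher at an unadjusted p of 0.05 and DESeq2 called 0. In standard medium 24 of the 29 were called lower in ve-1 and none higher, where 15.3% of tested genes were called lower and 12.5% higher. The median log2 fold change of the 29 was -1.25 there, against -0.03 over all tested genes. Their summed level was 4134 and 3296 CPM in ve-1 iron-free libraries, 3514 and 3755 CPM in wild type iron-free libraries, 1615 and 2155 CPM in ve-1 standard libraries and 3814 and 4486 CPM in wild type standard libraries. nuo29.9 fell to 71.6 ± 19.4 CPM in ve-1, against 244 ± 34.2 CPM in wild type, in standard medium (SD, n = 2 each, log2 fold change -1.77, SE 0.27, adjusted p = 0.00726). The count of 24 was 0 without standard ve-1 culture 1 and 2 without standard wild type culture 2. Whether the levels of ndi-1 and of complex I transcripts are related was not tested.

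For iron absence in ve-1, 18 of the 29 complex I genes rose and none fell (median log2 fold change 1.06 against 0.02 over all tested genes), beside the rises of nde-1 and nde-2. Over all tested genes 10.9% were called higher and 11.6% lower in this comparison. nuo21.3a, whose span overlaps a neighbouring gene, reached 198 ± 40.2 CPM in ve-1 iron-free libraries, against 58.7 ± 16.9 CPM in ve-1 standard libraries (log2 fold change 1.76, SE 0.28, adjusted p = 0.0103). nuo10.4, which also overlaps a neighbour, rose by 1.75 (SE 0.24, adjusted p = 0.00844). The count of 18 was 0 without standard ve-1 culture 1, 11 without standard ve-1 culture 2 or iron-free ve-1 culture 1, and 9 without iron-free ve-1 culture 2. In wild type edgeR called none of the 29 for iron absence (median -0.11), where 5 were lower at an unadjusted p of 0.05 and DESeq2 called 2 lower. For the difference between the ve-1 and wild type responses edgeR called 0 of 29 (median 1.21), with 22 past an unadjusted p of 0.05 and 9 called by DESeq2.

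**Figure D4:**
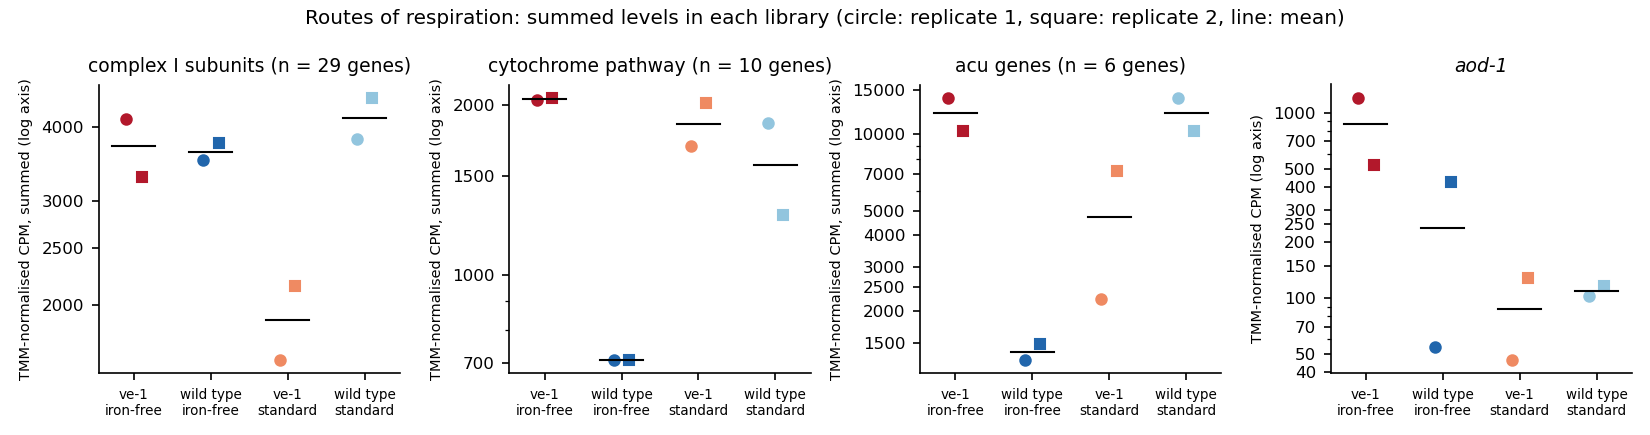
Summed TMM-normalised CPM (log axes) of the complex I, cytochrome pathway and acu gene lists, and the level of aod-1, in each library by group, with circles for replicate 1, squares for replicate 2 and lines at group means. Wild type iron-free libraries have the lowest cytochrome pathway sums (707 and 708 CPM), and ve-1 standard libraries the lowest complex I sums (1615 and 2155 CPM).

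The cytochrome pathway, which alternative oxidase bypasses, differed between the genotypes without iron. There all 10 listed genes were called higher in ve-1, where 8.36% of tested genes were called higher and 10.1% lower. Their median log2 fold change was 1.71 against 0.04 over all tested genes. Their summed level was 2045 and 2063 CPM in ve-1 against 707 and 708 CPM in wild type. cyc-1, which encodes cytochrome c, had 104 ± 41.1 CPM in ve-1 and 5.23 ± 1.28 CPM in wild type without iron (log2 fold change 4.30, SE 0.66, adjusted p = 0.00882). fes-1, which encodes the Rieske iron-sulfur protein, had 216 ± 5.17 CPM in ve-1 and 56.0 ± 1.03 CPM in wild type (log2 fold change 1.95, SE 0.30, adjusted p = 0.00835). The count of 10 was 4 without iron-free wild type culture 2, 6 without iron-free wild type culture 1 and 5 without iron-free ve-1 culture 2.

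For iron absence in wild type, 4 of the 10 cytochrome pathway genes fell and none rose (median log2 fold change -1.06 against 0.03). Over all tested genes 5.10% were called lower and 1.47% higher in this comparison. cyc-1 fell by 4.21 (SE 0.65, adjusted p = 0.0209) and qcr7, which encodes a subunit of complex III, fell by 2.32 (SE 0.33, adjusted p = 0.0162). The count of 4 was 0 without standard wild type culture 1 or iron-free wild type culture 2, and 1 without iron-free wild type culture 1. Both wild type iron-free libraries had similarly low cytochrome sums, while aod-1 was 54.4 CPM in replicate 1 and 425 CPM in replicate 2. Whether the levels of aod-1 and of cytochrome pathway transcripts are related was not tested. For the difference between the genotypes' responses edgeR called 0 of the 10, with 9 past an unadjusted p of 0.05 and 5 called by DESeq2. In ve-1, 2 of 10 rose without iron and none fell, with a median of 0.35, where 10.9% of tested genes were called higher. They were cyt-1, the cytochrome c1 gene (log2 fold change 1.48), and qcr8, another complex III subunit gene (0.96). Between genotypes with iron, 1 of 10 was higher in ve-1, against 12.5% of tested genes. It was cya-5, known for maturation of a mitochondrial cytochrome oxidase messenger (log2 fold change 1.32, SE 0.32, adjusted p = 0.0239). The count of 2 was 0 without culture 1 of ve-1 with iron or culture 2 of ve-1 without iron, and 1 without any of the other 6 libraries. The single call with iron was lost without culture 2 of wild type or either culture of ve-1 in standard medium.

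Because aod-2 and aod-5 are also known to control genes of gluconeogenesis, the 6 acu genes of acetate use were read beside them. Without iron 5 of 6 were higher in ve-1 and none lower, where 8.36% of tested genes were called higher. The median log2 fold change was 3.18 against 0.04 over all tested genes. Their summed level was 13960 and 10343 CPM in ve-1 against 1284 and 1492 CPM in wild type. acu-6, which encodes phosphoenolpyruvate carboxykinase, had 6213 ± 3070 CPM in ve-1 and 320 ± 132 CPM in wild type (log2 fold change 4.28, SE 0.89, adjusted p = 0.0197). The malate synthase gene acu-9 had 2188 ± 586 CPM in ve-1 and 157 ± 31.5 CPM in wild type (log2 fold change 3.80, SE 0.67, adjusted p = 0.0124). The count of 5 was 1 without either iron-free wild type culture and 3 without iron-free ve-1 culture 1.

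In wild type 4 of the 6 acu genes fell without iron and none rose, where 5.10% of tested genes were called lower. The median log2 fold change was -2.88 against 0.03 over all tested genes, with acu-6 down by 4.39 and the isocitrate lyase gene acu-3 by 3.82. That count was 0 without standard wild type culture 1 or without either iron-free wild type culture. In ve-1, 1 of 6 rose without iron, acu-8 (log2 fold change 1.68, adjusted p = 0.0210), where 10.9% of tested genes were called higher. In standard medium none of the 6 was called between genotypes by edgeR, with 1 lower at an unadjusted p of 0.05 and 1 called lower by DESeq2. The single acu-8 call was lost without culture 1 of ve-1 with iron or culture 2 of ve-1 without iron, and leaving out culture 2 of ve-1 with iron gave 2 acu calls for iron absence and 3 lower calls between genotypes with iron. The summed acu level in standard medium was 2245 and 7195 CPM in ve-1 and 13972 and 10278 CPM in wild type, and any relation of the acu levels to those of aod-2 was not tested.

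Both listed genes of the mitochondrial ATP synthase, atp-1 and atp-2, exceeded their wild type levels in ve-1 without iron (log2 fold changes 1.73 and 1.54). In ve-1 both were also higher without iron than with it (1.28 and 1.52). Over all tested genes 8.36% and 10.9% were called higher in these comparisons. The iron count of 2 in ve-1 was 0 without standard ve-1 culture 1 and 1 without standard ve-1 culture 2 or iron-free ve-1 culture 2. Of 6 catalase and superoxide dismutase genes, 1, cat-2, was called lower in ve-1 without iron (log2 fold change -2.16, adjusted p = 0.0152) and none higher. Over all tested genes 10.1% were called lower and 8.36% higher there. The list did not fall as a whole: its median log2 fold change was 1.00, against 0.04 over all tested genes. At an unadjusted p of 0.05, 2 of the 6 were higher and 1 lower, and DESeq2 called 2 higher and 1 lower. With iron none of the 6 was called between genotypes by edgeR, with 1 lower at an unadjusted p of 0.05. DESeq2 called 1 higher and 1 lower. For iron absence 3 of the 6 fell in ve-1 and 2 in wild type, and none rose, against 11.6% and 5.10% of tested genes called lower. In ve-1 cat-2 fell by 3.22 and cat-1 by 2.78 on the log2 scale. In wild type cat-1 fell by 4.07 and sod-2 by 2.50. The ve-1 count was 0 without culture 1 of ve-1 with iron, and the wild type count was 0 without either iron-free wild type culture and 1 without any of the 4 standard libraries.

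Genes with the pattern most like each of the 5 were found by the root mean square difference of log2 levels, centred on each gene's mean, over the 8 libraries and 6622 genes. gcy-1 was nearest to nde-1 (0.155), NCU00088 to nde-2 (0.203), mig-11 to ndi-1 (0.391), NCU06425 to aod-1 (0.486) and NCU03780 to NCU03984 (0.512). For scale, the genes' own root mean squares about their means were 0.60, 0.98, 1.57, 1.56 and 1.19 in that order. mig-11 had 114 and 201 CPM in ve-1 iron-free libraries, 6.59 and 51.5 CPM in wild type iron-free libraries, 57.2 and 63.7 CPM in ve-1 standard libraries and 17.5 and 5.43 CPM in wild type standard libraries. pdx-2 came next for ndi-1 (0.424), a gene of vitamin B6 synthesis.

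NCU06425, the nearest to aod-1, had 1231 and 940 CPM in ve-1 iron-free libraries, 144 and 642 CPM in wild type iron-free libraries, 136 and 227 CPM in ve-1 standard libraries and 127 and 250 CPM in wild type standard libraries. It shared with aod-1 the high ve-1 iron-free pair and the gap between the iron-free wild type cultures. Among the 5 genes, nde-1 and nde-2 were the most alike (0.571) and aod-1 and NCU03984 the least (2.26).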

How the data were processed

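The authors deposited raw read counts per gene for each library. Libraries were made with a stranded mRNA kit, per the labels' protocols. The submitters' processing notes list FastQC, Trim Galore, STAR and DESeq2 without versions; how reads were counted, on which strand and against which build and annotation is not given in the sources used here. From the authors came, too, tables of 4 comparisons holding, per the file headers, mean normalised counts per group (a signal, not used), log2 fold changes and adjusted p-values; only the values credited to them were used. Symbols, spans and overlaps came from the RefSeq table of assembly NC12, which matched 9729 of 9730 genes. Overlaps were found from its start and end coordinates, and no sequences were used.

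The count model was fitted with edgeR 4.0.16 (limma 3.58.1, R 4.3.3). Genes were kept by filterByExpr (minimum count 10, minimum total 15; 8118 genes), scaled by TMM and fitted over all 8 libraries as 4 group means with robust quasi-likelihood dispersions (4 residual degrees of freedom). Tests were two-sided, with Benjamini-Hochberg adjustment over all tested genes, and genes with an adjusted p under 0.05 count as called. The script was tested on simulated data. Alternatives were DESeq2 1.42.0, other scalings, no filter, the compared libraries alone, a replicate block and each library left out. The genes set for naming were the 5 genes, ve-1, sre and other aod, nde and ndi genes. Also set were the 2 called genes with the largest absolute log2 fold change per list and comparison. The 3 nearest genes per member by pattern (mean of at least 10 CPM, prior count 2) were found too, and not all of these are named above. The genes matA-1, NCU05226, con-13 and eas were named after their values were seen. The list for ubiquinone synthesis (coq) matched no symbol. Members and lists were chosen with earlier results of these data known. Replicate numbers are shared between groups in the labels, which do not say that they pair cultures, so the main fit has no block.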

Additional observations from a re-analysis of the deposited data

Results flagged for a closer look

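The response of nde-3 to iron absence pointed in opposite directions in the genotypes, higher in both ve-1 libraries (39.2 and 26.5 CPM without iron, 17.3 and 20.9 CPM with iron) and lower in both wild type libraries (20.7 and 21.0 CPM without iron, 26.0 and 24.8 CPM with iron). The difference between the responses was 1.06 on the log2 scale (95% interval 0.21 to 1.92), and edgeR's test of that difference gave an adjusted p of 0.177, which did not pass. With libraries scaled by total counts the wild type response turned to 0.24.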

How the results depend on the processing

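The count of the 5 genes called was 1 in standard medium between genotypes and became 0 with no filter on low counts and 0 with a replicate block. For iron absence in wild type it was 0 and became 2 with total-count scaling and 1 with DESeq2. For iron absence in ve-1 it was 2 and became 5 with the compared libraries alone, and for the difference of responses it was 0 and became 1 with DESeq2. With each library left out the counts ran from 0 to 1 and 0 to 3 between genotypes with and without iron, from 0 to 3 for iron in ve-1, and stayed at 0 otherwise. The cause was not tested.

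Signs turned with total-count scaling for nde-1 (0.025) in standard medium, NCU03984 (0.12) in iron-free medium, aod-2 (0.41), aod-5 (0.42) and nde-3 (0.24) for iron in wild type, and aod-2 (0.027) and aod-5 (0.17) for iron in ve-1. With upper-quartile scaling NCU03984 turned to 0.029 between genotypes without iron and aod-2 to 0.010 for iron in wild type. None of these was called. Leaving out a library moved the log2 fold change across 0 between genotypes with iron for nde-2 (-0.19 to 0.22), aod-1 (-1.24 to 0.23) and aod-3 (-3.22 to 0.066), and without iron for nde-1 (-0.24 to 0.48) and NCU03984 (-0.95 to 2.0). For iron in wild type it did so for ndi-1 (-0.86 to 1.21), aod-1 (-0.92 to 2.0), NCU03984 (-3.66 to 0.48), aod-2 (-0.30 to 0.16), aod-5 (-0.18 to 0.026) and aod-3 (-1.73 to 1.26), and for the difference of responses for ndi-1 (-0.012 to 2.05), NCU03984 (-3.10 to 1.03), aod-2 (-0.43 to 0.038) and aod-5 (-0.14 to 0.068). Over the members and relatives, 608 of the alternative values kept direction and side of the threshold, 27 lost a call, 25 gained one and 31 turned sign.

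Same-numbered libraries did not deviate together (correlations 0.06, 0.00, 0.06 and -0.03 of the replicate differences over 8118 genes), which does not show pairing over all genes. matA-1 followed the number within wild type (118 and 74 counts in replicate 1, 0 and 0 in replicate 2), and file names carry a shared code, so whether same-numbered cultures of a genotype come from the same strain is not settled by the labels. A replicate block changed the call of ndi-1 in standard medium (adjusted p = 0.0637) and turned aod-3 for iron in wild type to -0.056, or to -0.18 with a block by genotype. In ve-1 without iron, aod-1 was called higher than with iron under the block shared by all groups (0.0428) and not under the block by genotype (0.0712), aod-3 was called under both (0.0250 and 0.0479), and the calls of nde-1 (0.0307) and nde-2 (0.00902) held with the block by genotype. Counts over all genes moved more than 1.5-fold for iron in wild type, from 533 to 1249 with DESeq2, 1290 with total-count scaling, 326 with a block by genotype and 125 with the compared libraries alone. Between genotypes without iron 1500 became 940 with the compared libraries alone, and for the difference of responses 20 became 601 with DESeq2 and 35 with no filter. With a library left out they ran from 104 to 2361 and 586 to 1487 between genotypes with and without iron, 7 to 645 and 59 to 1756 for iron in wild type and ve-1, and 0 to 22 for the difference. Total-count scaling moved the split of higher against lower calls to 1541 and 787 between genotypes with iron (1012 and 1246 as reported), 1003 and 287 for iron in wild type (119 and 414), 1418 and 679 for iron in ve-1 (881 and 941) and 6 and 21 for the difference (7 and 13), of which all but the last turned round. Upper-quartile scaling gave 1221 and 1009 between genotypes with iron, which turned round, and 170 and 350 for iron in wild type. Levels per transcript length were not run, since gene spans were used. With 2 cultures a group, wide intervals limit aod-1, aod-3 and NCU03984 most, and NCU03984 had at most 21 counts.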
